A study of Rattus norvegicus with 18 samples.

Results

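The neuronal calcium sensors hippocalcin (Hpca), hippocalcin-like 1 (Hpcal1), hippocalcin-like 4 (Hpcal4), neurocalcin delta (Ncald), visinin-like 1 (Vsnl1) and neuronal calcium sensor 1 (Ncs1) were followed in 3 regions of the rat brain after chronic stress. They were taken by name: every probe set whose only gene symbol in the array's probe-to-gene table is 1 of these 6 genes was kept. This gave 14 of the 31099 probe sets, for 6 of 14218 named genes, with 1 probe set for Hpca, 2 each for Hpcal1, Ncald and Vsnl1, 3 for Hpcal4 and 4 for Ncs1. A probe set is a group of short probes read together as 1 value, and its intensity, a brightness in arbitrary units, rises with the amount of the transcript.

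Total RNA of Rattus norvegicus was measured on 18 Affymetrix expression arrays. Rats had undergone chronic immobilization stress or had been handled without stress, and amygdala, hippocampus and cortex were sampled, which gives 6 groups of 3 arrays. Strain, age, sex and the length of the stress are not stated in the labels, and neither is whether the 3 arrays are different animals, pools or repeats of one RNA. The titles do not say whether the 3 regions came from the same rats. What the p-values weigh is the spread from array to array, which could be technical. Region was read from titles and descriptions, because the source field names the amygdala on every array.

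Neuronal calcium sensors are small cytoplasmic proteins that bind calcium ions through EF-hand loops and carry a myristoyl fatty acid at the amino terminus. In several of them, hippocalcin and the visinin-like proteins among them, calcium binding exposes the fatty acid and moves the protein to membranes, a step known as the calcium-myristoyl switch. They respond to smaller rises in calcium than calmodulin does, and act on ion channels, receptor traffic and lipid kinases. Hippocalcin is abundant in pyramidal neurons of the hippocampus, where it takes part in the slow afterhyperpolarisation and in synaptic depression.

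The promoters of Hpca, Hpcal1 and Hpcal4 are shown because these genes gave the widest differences between regions (Hpca, Hpcal1) or the only stress calls (Hpcal4). Each is the RefSeq sequence on build GRCr8 for 250 bases before to 50 bases after the gene start, read on the gene's strand, and 5 of the 6 genes had such an entry. Capitals mark GC boxes (GGGCGG) and cores of the cAMP response element (TGACG), each searched on both strands. The Hpca window lies at chr5:146748309-146748608 on the minus strand, the Hpcal1 window at chr6:46206644-46206943 on the plus strand and the Hpcal4 window at chr5:140739658-140739957 on the plus strand.
Hpca: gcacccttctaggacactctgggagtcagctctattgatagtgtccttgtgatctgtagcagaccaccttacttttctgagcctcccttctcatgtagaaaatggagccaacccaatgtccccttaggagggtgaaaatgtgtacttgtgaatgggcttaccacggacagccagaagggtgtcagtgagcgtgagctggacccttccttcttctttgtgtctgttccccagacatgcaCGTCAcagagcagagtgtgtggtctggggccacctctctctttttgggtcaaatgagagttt
Hpcal1: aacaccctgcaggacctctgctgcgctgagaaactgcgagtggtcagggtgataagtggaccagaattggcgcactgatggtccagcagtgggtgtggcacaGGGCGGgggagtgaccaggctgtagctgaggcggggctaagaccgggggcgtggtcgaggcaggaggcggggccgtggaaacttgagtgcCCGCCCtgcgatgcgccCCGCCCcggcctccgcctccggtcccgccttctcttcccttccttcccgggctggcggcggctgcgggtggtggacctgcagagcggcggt
Hpcal4: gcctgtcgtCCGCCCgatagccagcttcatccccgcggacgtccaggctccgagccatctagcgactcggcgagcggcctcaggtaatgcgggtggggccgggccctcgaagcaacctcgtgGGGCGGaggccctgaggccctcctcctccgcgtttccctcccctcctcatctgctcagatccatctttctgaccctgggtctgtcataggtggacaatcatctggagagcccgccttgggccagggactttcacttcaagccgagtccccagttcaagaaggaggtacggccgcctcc
The Hpca window held 1 core of the cAMP response element and no GC box, and 50.7% of its bases were G or C. The Hpcal1 window held 3 GC boxes and the Hpcal4 window 2, at 69% and 65% G and C. Over 33469 rat promoters of this length, 33.1% held a GC box and 21.2% the core of the cAMP response element, and the median G and C content was 51.7%. Vsnl1 and Ncs1, whose windows were 61.3% and 82.3% G and C, held 1 GC box and 1 such core in that order. The core of the glucocorticoid response element (TGTTCT, on either strand), present in 20.7% of all promoters, was in none of these 5 windows. A match describes letters only, and nothing is drawn from it about a factor.

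All arrays had been scaled to one trimmed mean, and their median intensities lay between 49.1 and 56.4. Arrays correlated with their own group at a mean Spearman's rho of 0.956, in stress amygdala 1, to 0.985. Markers set against the labelled regions in handled arrays placed 6 of 8 hippocampus markers higher in hippocampus than in cortex, and 7 of 7 neocortex markers lower there. Amygdala markers were higher in amygdala than in hippocampus for 6 of 6 genes, and than in cortex for only 3 of 6. Of 8 neuron markers, all bright enough to test, none passed for stress in any region. In these bulk samples, fewer cells of a type and less RNA per cell cannot be told apart.

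**Figure D1:**
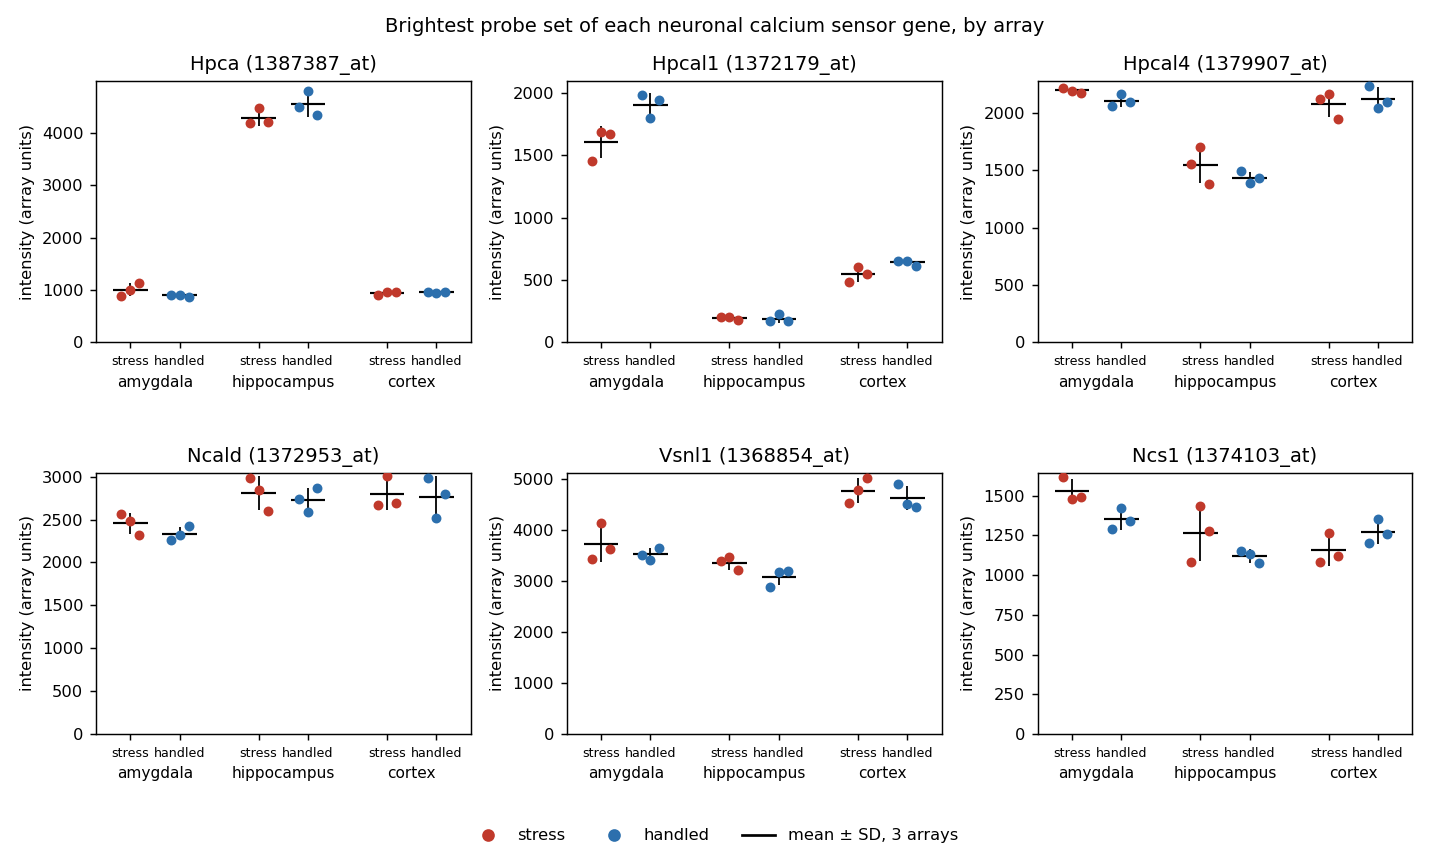
Intensity (array units, linear scale from 0) of the brightest probe set of each of the 6 genes on every array, with stress in red left of handled in blue within each region, and a bar and line for mean ± SD of 3 arrays. Hpca stands at 4193 or higher on every hippocampus array, Hpcal1 stands highest on amygdala arrays, and the other genes span narrower ranges.

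The first comparison was of the regions. Most sensor probe sets differed between them: of the 13 bright enough to test, 9 passed between stress amygdala and stress hippocampus, 8 between stress hippocampus and stress cortex and 9 between stress amygdala and stress cortex. Over all 18625 probe sets tested, the shares that passed in those comparisons were 27.8%, 25.3% and 19.8%. The same comparisons among handled arrays called 12, 9 and 7 of the 13, where 28.4%, 25.9% and 14.7% of all probe sets passed. A call here means a Benjamini-Hochberg adjusted p under 0.05 in limma, on log2 of the intensity plus 16. The 3 stress comparisons share arrays with each other, as do the 3 handled comparisons.

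Hippocalcin was the hippocampal member. Hpca intensity on the 3 amygdala arrays was 887, 1002 and 1129.7 after stress, against 909, 915 and 875 in handled rats. In hippocampus it was 4193, 4472 and 4201 after stress, against 4504, 4796 and 4338 in handled rats. In cortex it was 912, 962 and 968 after stress, against 963, 945 and 968 in handled rats. Every hippocampus array was thus over 3 times as bright as every amygdala or cortex array. The log2 difference between hippocampus and cortex was 2.16 ± 0.07 in stress arrays and 2.23 ± 0.07 in handled arrays (limma SE, adjusted p = 9.18e-17 and 8.06e-17). Between amygdala and cortex it was 0.08 ± 0.07 in stress arrays and -0.09 ± 0.07 in handled arrays, and neither passed (adjusted p = 0.436 and 0.424 in limma).

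Hippocalcin-like 1, unlike hippocalcin, was dimmest in hippocampus. It was brightest in amygdala, and both of its probe sets gave that order. On 1372179_at the amygdala arrays read 1458, 1688 and 1676 after stress, against 1981, 1797 and 1944 in handled rats. The hippocampus arrays read 207, 203 and 179 after stress, against 173, 225 and 173 in handled rats. The cortex arrays read 481, 609 and 548 after stress, against 656, 653 and 617 in handled rats. The regions did not overlap in either treatment. Amygdala exceeded hippocampus by a log2 difference of 2.94 ± 0.09 in stress arrays (fold 7.65, adjusted p = 1.66e-16 in limma), and by 3.23 ± 0.09 in handled arrays (fold 9.4, adjusted p = 3.23e-17). Amygdala exceeded cortex by 1.53 ± 0.09 in stress and 1.55 ± 0.09 in handled arrays, again on the log2 scale.

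The dimmer Hpcal1 probe set, 1369562_at, ran parallel. It averaged 736 ± 64.8 in stress amygdala and 811 ± 16.3 in handled amygdala (SD, n = 3 each), against 76.8 ± 22.4 in stress hippocampus and 71.0 ± 15.0 in handled hippocampus. Its log2 difference between amygdala and hippocampus was 3.04 ± 0.13 in stress arrays and 3.26 ± 0.13 in handled arrays. Its log2 ratio to the brighter probe set on the same array was -1.13 ± 0.06 in stress amygdala and -1.23 ± 0.06 in handled amygdala, with overlapping arrays.

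**Figure D2:**
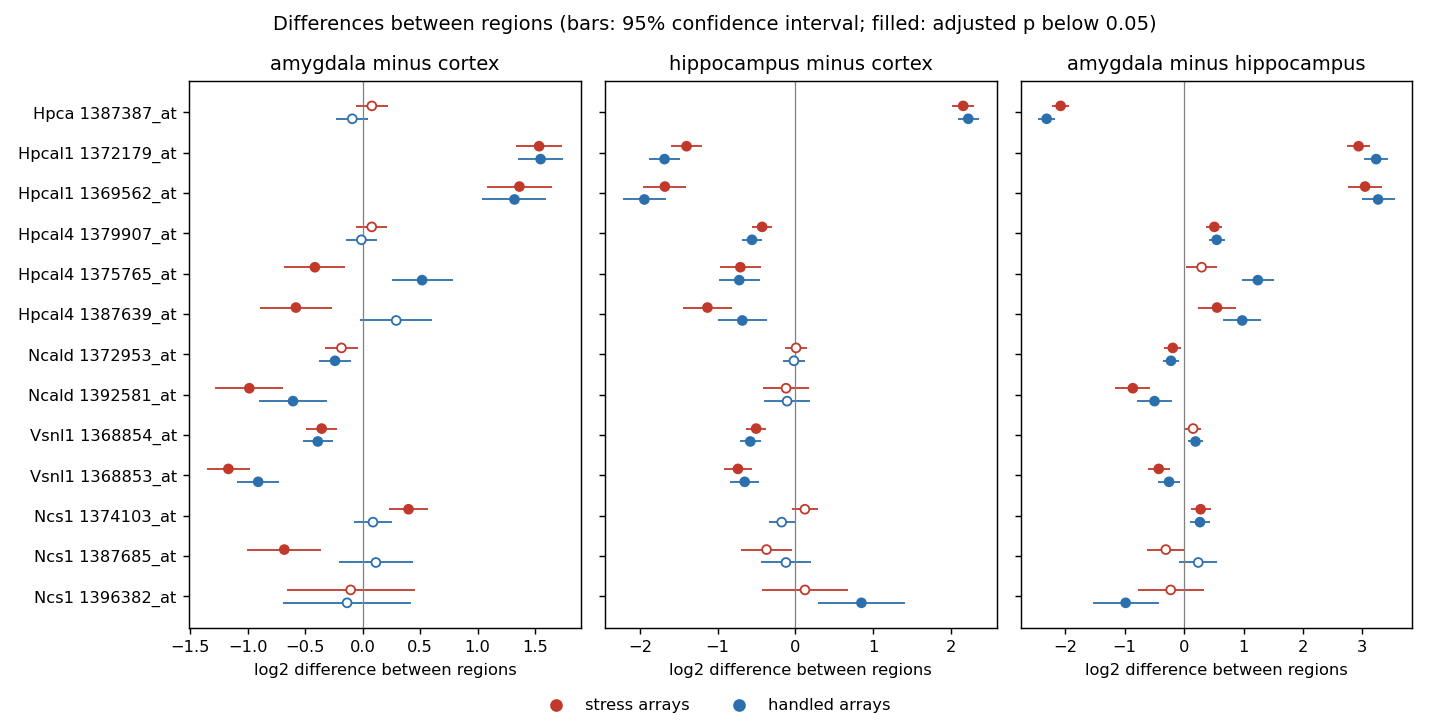
Log2 difference between regions (with 95% limma intervals) for the 13 tested probe sets, for each pair of regions in stress and in handled arrays. Hpca is lower and Hpcal1 higher in amygdala than in hippocampus in both treatments, and Hpcal4 1375765_at changes side between amygdala and cortex, at -0.41 in stress and 0.52 in handled arrays.

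Visinin-like 1, which raises the surface level of some receptors and is also measured in cerebrospinal fluid as a sign of neuron loss, was brightest in cortex. On 1368854_at, amygdala arrays read 3440.2, 4134 and 3639 after stress, against 3523, 3407 and 3650.1 in handled rats. Hippocampus arrays read 3387, 3474 and 3213 after stress, against 2889.9, 3176 and 3203 in handled rats. Cortex arrays read 4529, 4782 and 5022 after stress, against 4902, 4524 and 4460.4 in handled rats. All 6 cortex arrays lay above all the others. Amygdala was below cortex by a log2 difference of -0.36 ± 0.06 in stress arrays and -0.39 ± 0.06 in handled arrays. On the dimmer 1368853_at the same differences were -1.17 ± 0.09 and -0.91 ± 0.09, over 2 times as large on the log2 scale.

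Between amygdala and hippocampus the 2 Vsnl1 probe sets gave opposite signs. In stress arrays the log2 difference was 0.15 ± 0.06 on 1368854_at, which did not pass (adjusted p = 0.0858 in limma), and -0.43 ± 0.09 on 1368853_at, which did (adjusted p = 0.000709). In handled arrays both passed, at 0.19 ± 0.06 on 1368854_at (adjusted p = 0.0277) and -0.25 ± 0.09 on 1368853_at (adjusted p = 0.0346). The handled calls were each lost under 6 of 27 alternative settings, among them the loss of handled amygdala 1 or 3 or handled hippocampus 1 on 1368854_at, and of handled amygdala 2 or 3 or handled hippocampus 3 on 1368853_at. The order of amygdala and hippocampus for Vsnl1 thus depended on the probe set.

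Neurocalcin delta, which binds clathrin and cytoskeletal proteins, was lowest in amygdala. On 1372953_at, amygdala arrays averaged 2456 ± 123 after stress and 2337 ± 80.4 in handled rats, against 2811 ± 196 and 2729.5 ± 141 in hippocampus in the same order (SD, n = 3 each). Cortex averaged 2794 ± 187 after stress and 2769 ± 236 in handled rats. The log2 difference between amygdala and cortex was -0.18 ± 0.07 in stress arrays, which did not pass (adjusted p = 0.058 in limma), and -0.24 ± 0.07 in handled arrays, which did (adjusted p = 0.0172). The handled call was lost without handled amygdala 1 or 2 or handled cortex 1 or 3, and with no variance trend. The stress difference passed without stress hippocampus 3 or handled cortex 2, and with median centring or quantile normalization. Amygdala was below hippocampus by -0.19 ± 0.07 in stress (adjusted p = 0.0369 in limma) and -0.22 ± 0.07 in handled arrays (adjusted p = 0.016). These calls were lost under 8 and 4 of 27 alternative settings.

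The dimmer Ncald probe set, 1392581_at, showed a wider gap. Its amygdala arrays read 190.2, 314 and 330.4 after stress, against 378, 338 and 318 in handled rats, while the lowest hippocampus or cortex array read 402. Amygdala was below cortex by -0.98 ± 0.14 in stress arrays and by -0.61 ± 0.14 in handled arrays on the log2 scale, and both passed. Against hippocampus the differences were -0.86 ± 0.14 and -0.50 ± 0.14, stress before handled, and both passed too. Hippocampus and cortex did not differ past the test on either Ncald probe set in either treatment.

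Ncs1, the mammalian frequenin, regulates phosphatidylinositol 4-kinase and desensitisation of dopamine receptors, and its brightest probe set stayed between 1073 and 1616 on all 18 arrays. On 1374103_at, amygdala arrays read 1616, 1476 and 1491 after stress, against 1290.1, 1421 and 1342 in handled rats. Hippocampus arrays read 1084, 1434 and 1278 after stress, against 1154, 1135 and 1073 in handled rats. Cortex arrays read 1082, 1266 and 1121 after stress, against 1200.5, 1349.7 and 1258 in handled rats. Amygdala was above hippocampus by a log2 difference of 0.28 ± 0.08 in stress arrays (adjusted p = 0.0123 in limma) and 0.27 ± 0.08 in handled arrays (adjusted p = 0.0157). Settings that lost the stress call included leaving out stress amygdala 1 or stress hippocampus 1. The handled call was lost without handled amygdala 2 or handled hippocampus 3, and with no variance trend.

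The other Ncs1 probe sets were dim and did not follow it throughout. In stress arrays amygdala was above cortex on 1374103_at, by 0.40 ± 0.08 on the log2 scale, and below it on 1387685_at, by -0.68 ± 0.16, and both passed. In handled arrays the same differences were 0.09 ± 0.08 and 0.115 ± 0.156, of one sign, and neither passed. Between amygdala and hippocampus 1387685_at gave -0.31 ± 0.16 in stress and 0.24 ± 0.16 in handled arrays, and neither passed. Probe set 1396382_at ranged from 24.7 to 104. It averaged 61.3 ± 13.2 in stress hippocampus, against 55.3 ± 15.3 in stress cortex, and the log2 difference of 0.12 ± 0.27 did not pass (adjusted p = 0.8 in limma). It averaged 95.3 ± 11.4 in handled hippocampus, against 47.5 ± 20.2 in handled cortex, and the log2 difference of 0.85 ± 0.27 passed (adjusted p = 0.0212). That call was lost without handled hippocampus 2 or 3 or handled cortex 1 or 2. On the same probe set handled amygdala was below handled hippocampus by -0.985 ± 0.268 on the log2 scale (adjusted p = 0.00753 in limma). This is opposite in sign to 1374103_at, and the call was lost without handled amygdala 2. In stress arrays the difference was -0.23 ± 0.27 and did not pass (adjusted p = 0.581 in limma). Probe set 1380492_at, at 9.84 to 53.8, lay below the intensity filter and was not tested.

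Hippocalcin-like 4, known in brain for modulating P/Q-type calcium channels, was lower in hippocampus than in the other regions in handled rats on all 3 of its probe sets. On 1379907_at, hippocampus arrays averaged 1546 ± 159 after stress and 1436 ± 52.4 in handled rats, against 2082 ± 115 and 2125 ± 101 in cortex in the same order. The log2 difference between hippocampus and cortex was -0.43 ± 0.06 in stress and -0.56 ± 0.06 in handled arrays. On 1375765_at it was -0.71 ± 0.13 and -0.72 ± 0.13, and on 1387639_at -1.13 ± 0.15 and -0.68 ± 0.15, in the same order, and all 6 differences passed. Handled amygdala was above handled hippocampus by 0.55 ± 0.06 on 1379907_at, 1.24 ± 0.13 on 1375765_at and 0.98 ± 0.15 on 1387639_at, and all passed. In stress arrays these were 0.51 ± 0.06, 0.29 ± 0.13 and 0.55 ± 0.15, and that on 1375765_at did not pass (adjusted p = 0.094 in limma). The stress call on 1387639_at was lost with only the arrays compared or without stress amygdala 3.

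The effect of chronic immobilization stress was then compared with handling in each region. In the amygdala 2 of the 13 sensor probe sets passed, both of them of Hpcal4 and both lower after stress, where 2.4% of all probe sets tested passed and 1.94% passed as lower. No sensor probe set passed in hippocampus (0 of 13, where 0.36% of all passed) or in cortex (0 of 13, where 0.403% passed). The median log2 difference over the 13 was -0.03 in amygdala, 0.05 in hippocampus and -0.02 in cortex, against 0.01, 0.00 and 0.00 over all probe sets tested. Arrays of stress and handled rats did not overlap on 6 of the 13 in amygdala, 4 in hippocampus and 4 in cortex, where 16.6%, 14.2% and 23.3% of all probe sets did not overlap. An exact permutation test of 3 against 3 arrays has 10 splits and cannot go below p = 0.1, so none was run.

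**Figure D3:**
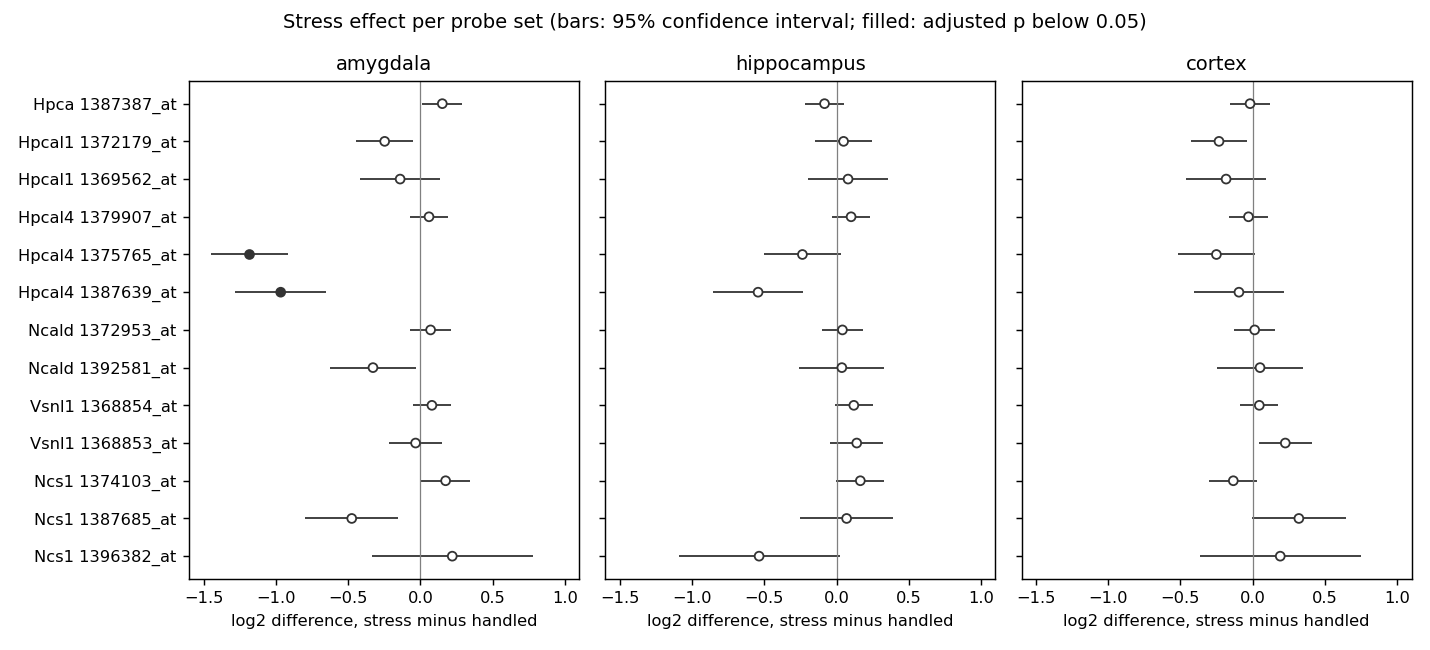
Log2 difference of stress minus handled (with 95% limma intervals) for the 13 tested probe sets in amygdala, hippocampus and cortex. The 2 intervals farthest from 0 are those of Hpcal4 1375765_at (-1.45 to -0.92) and 1387639_at (-1.28 to -0.65) in amygdala.

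The Hpcal4 call rested on 2 of its 3 probe sets, and the brightest one did not share it. On 1375765_at, amygdala arrays read 354, 510.1 and 492 after stress, against 916, 1012 and 1191 in handled rats. On 1387639_at they read 114, 191 and 229.6 after stress, against 316, 341 and 399.5 in handled rats. On 1379907_at they read 2221, 2193 and 2178 after stress, against 2059, 2166 and 2097 in handled rats. On the first pair every stress array was below every handled array, and on the brightest probe set every stress array was above. The fold of stress over handled was 0.44 on 1375765_at (adjusted p = 1.73e-05 in limma) and 0.51 on 1387639_at (log2 difference -0.97 ± 0.15, adjusted p = 0.000758). On 1379907_at the log2 difference was 0.06 ± 0.06 (95% interval -0.07 to 0.19, adjusted p = 0.74). That interval does not reach the change of either other probe set. Both calls held under all 27 alternative settings. It is not given here which part of the transcript, or which transcript form, each probe set reads.

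**Figure D4:**
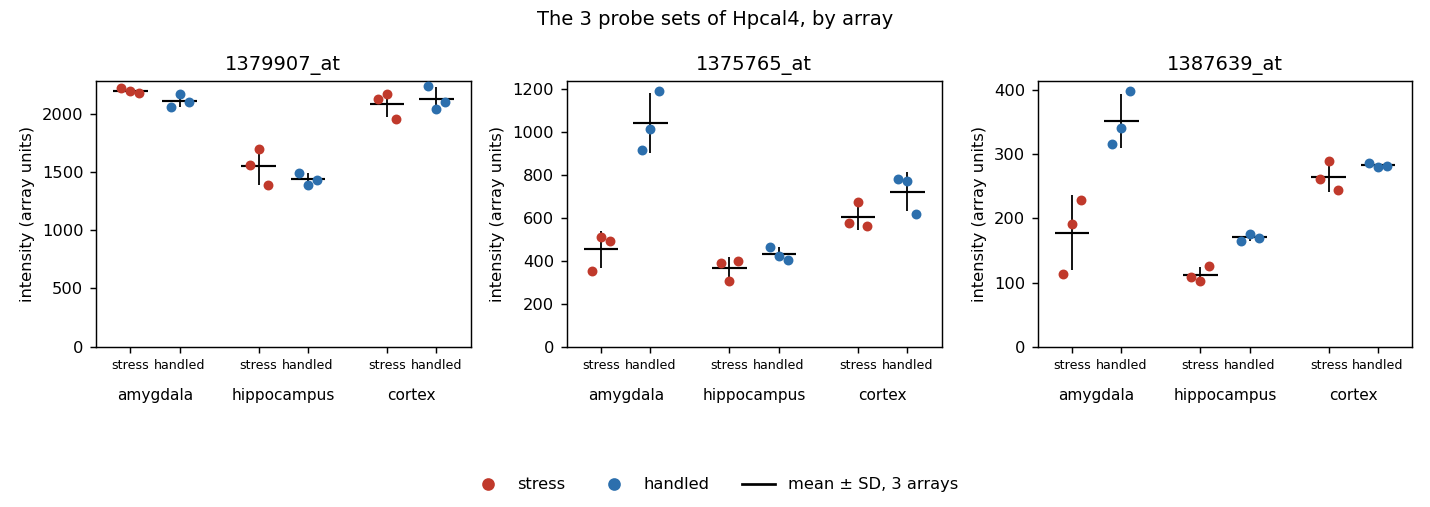
Intensity (array units, linear scale from 0) of the 3 Hpcal4 probe sets on every array, stress in red left of handled in blue within each region, with mean ± SD of 3 arrays. On 1375765_at the stress amygdala arrays (354 to 510.1) lie below the handled ones (916 to 1191), while on 1379907_at both treatments stand at 2059 or higher in amygdala.

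Outside the amygdala neither of these probe sets passed. On 1375765_at, hippocampus arrays read 387, 304 and 400.2 after stress, against 466, 419 and 402 in handled rats, and cortex arrays read 573, 673 and 561 after stress, against 779, 769.7 and 615 in handled rats. The log2 differences were -0.24 ± 0.13 in hippocampus (95% interval -0.50 to 0.03) and -0.25 ± 0.13 in cortex (-0.52 to 0.01), so both intervals take in 0. On 1387639_at, hippocampus arrays read 109, 102 and 126 after stress, against 166, 175 and 169.9 in handled rats. These did not overlap, but the log2 difference of -0.54 ± 0.15 did not pass (adjusted p = 0.139 in limma). It passed without stress amygdala 1 (adjusted p = 0.00862). In cortex 1387639_at read 261, 289.6 and 244 after stress, against 287, 281 and 282 in handled rats, and the groups overlapped.

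The difference between regions in the stress effect was tested directly. On 1375765_at the effect in amygdala differed from that in cortex by -0.93 ± 0.18 on the log2 scale (adjusted p = 0.0336 in limma), the only 1 of 13 sensor probe sets to pass, where 0.129% of all passed. Against hippocampus the difference was as large, at -0.95 ± 0.18, and did not pass (adjusted p = 0.0555; 0 of 13, where 0.0483% of all passed). On 1387639_at the difference from cortex was -0.87 ± 0.21 (adjusted p = 0.131 in limma) and that from hippocampus -0.42 ± 0.21 (adjusted p = 0.639). On the brightest Hpcal4 probe set, 1379907_at, they were 0.09 ± 0.09 and -0.04 ± 0.09 (adjusted p = 0.8 and 0.946). The call against cortex on 1375765_at was lost under 15 of 27 alternative settings. Its adjusted p-values ran from 0.017 to 0.155, so it lies near the threshold. Between hippocampus and cortex no sensor probe set passed (0 of 13, where 0.0859% of all passed).

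The order of amygdala and cortex for Hpcal4 depended on treatment on 2 of its probe sets. On 1375765_at stress amygdala was below stress cortex by -0.41 ± 0.13 on the log2 scale (adjusted p = 0.0253 in limma), and handled amygdala was above handled cortex by 0.52 ± 0.13 (adjusted p = 0.00711). On 1387639_at the differences were -0.58 ± 0.15, which passed, and 0.29 ± 0.15, which did not, stress before handled. On 1379907_at they were 0.08 ± 0.06 and -0.01 ± 0.06, and neither passed. Without stress amygdala 1 the stress calls on both dimmer probe sets were lost. That on 1375765_at was also lost without stress cortex 2 or with no variance trend, and that on 1387639_at with only the arrays compared. The handled call on 1375765_at was lost without handled amygdala 3 or handled cortex 3. These differences use the same amygdala and cortex arrays as the stress comparisons, so they are the same values seen from another side.

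**Figure D5:**
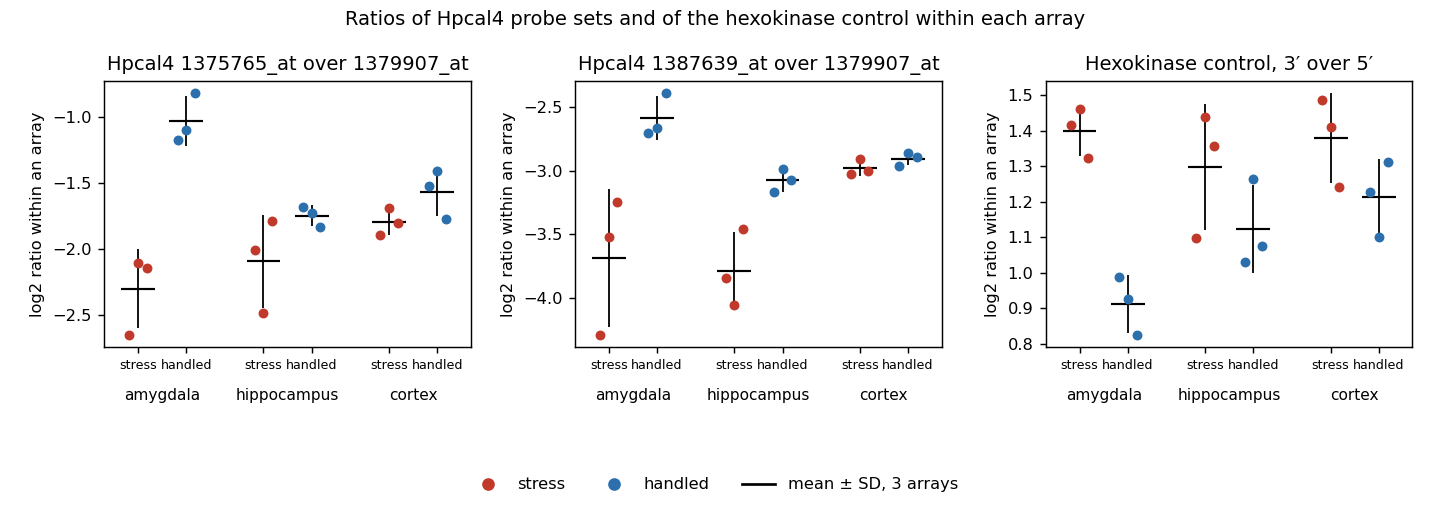
Log2 ratio of each dimmer Hpcal4 probe set to 1379907_at (left, middle) and of the 3′ to the 5′ hexokinase control (right) within the same array, stress in red left of handled in blue in each region, with mean ± SD of 3 arrays. For 1375765_at the stress amygdala arrays lie at -2.65 to -2.10 and the handled ones at -1.17 to -0.82, and the hexokinase ratios of the same groups lie at 1.32 to 1.46 and 0.83 to 0.99.

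Within an array the ratio of 2 probe sets does not depend on scaling. The log2 ratio of 1375765_at to 1379907_at was -2.30 ± 0.30 in stress amygdala and -1.03 ± 0.19 in handled amygdala (SD, n = 3 each). It was -2.09 ± 0.36 and -1.75 ± 0.08 in hippocampus, and -1.79 ± 0.10 and -1.57 ± 0.19 in cortex, stress before handled. Handled amygdala stood apart, with a higher ratio on each of its arrays than on any other array. The ratio of 1387639_at to 1379907_at was -3.69 ± 0.54 in stress amygdala and -2.59 ± 0.17 in handled amygdala, and in hippocampus it was -3.79 ± 0.30 after stress and -3.08 ± 0.09 in handled rats. In cortex it was -2.98 ± 0.06 and -2.91 ± 0.05, stress before handled. These ratios show unequal readings of the probe sets, and not that either one was steady.

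Other measures moved with this result in the amygdala. The log2 difference between the 3′ and 5′ hexokinase control probe sets, which grows as RNA is shortened from the 5′ end or copied less far, was 1.40 ± 0.07 in stress amygdala and 0.91 ± 0.08 in handled amygdala (SD, n = 3 each), with no overlap. In hippocampus it was 1.30 ± 0.18 after stress and 1.12 ± 0.12 in handled rats, and in cortex 1.38 ± 0.13 and 1.21 ± 0.11 in the same order. The same difference for GAPDH was 0.45 ± 0.08 in stress amygdala and 0.45 ± 0.04 in handled amygdala, and for beta-actin it was 2.16 ± 0.24 and 2.09 ± 0.08. On both, stress amygdala 1 had the highest value of all arrays, at 0.54 for GAPDH and 2.43 for beta-actin. The added dap control read 8.53 ± 0.09 on the log2 scale in stress amygdala and 9.03 ± 0.28 in handled amygdala. All handled amygdala arrays read 8.866 or higher for dap, and every other array read 8.806 or lower. Their hexokinase difference was 0.987 or lower, and on every other array it was 1.031 or higher. On the dap and hexokinase controls handled amygdala thus stood apart from all other groups, stress amygdala included, as it did in the Hpcal4 ratios. The part of these measures in the Hpcal4 result was not tested.

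Over all 2793 genes with several tested probe sets, the stress effect of a dimmer probe set minus that of the brightest had a median of -0.04 on the log2 scale in amygdala, where 55.6% of 3742 such differences were below 0. The medians were -0.01 in hippocampus and 0.05 in cortex. For Hpcal4 1375765_at it was -1.24 in amygdala. The shares below 0 were 52.1% in hippocampus and 40.7% in cortex. Of the 7 dimmer sensor probe sets tested, 5 had a difference below 0 in amygdala, 5 in hippocampus and 2 in cortex.

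Cell markers were also set beside it. The neuron markers summed to between 19880 and 22530 on stress amygdala arrays and between 20640 and 21130 on handled ones. The 7 striatal neuron markers measured summed to between 2587 and 3039 in stress amygdala and between 2253 and 2439 in handled amygdala, without overlap. All 7 had a stress effect above 0, and 1 of them passed. The 7 amygdala region markers measured summed to between 4192 and 4546 in stress amygdala, against 3871 to 3967 in handled amygdala. Of the 6 tested, 3 had a stress effect below 0 and 1 passed as higher. The 8 hippocampus region markers summed to between 3654 and 4042 in stress amygdala, against 3540 to 3601 in handled amygdala. Of these, 3 had a stress effect below 0 and none passed. The 6 choroid plexus and ependyma markers summed to between 849 and 932 in stress amygdala, and between 684 and 718 in handled amygdala. In the regions the amygdala effect was set against, other markers moved. The 7 meningeal fibroblast markers summed to between 1881 and 1941 in stress cortex, against 4254 to 4495 in handled cortex, and 6 of 7 passed as lower. In amygdala they summed to between 1051 and 1108 after stress and between 1049 and 1132 in handled rats, and none passed. Their stress effect in amygdala minus that in cortex passed as higher for 4 of 7. Choroid plexus and ependyma markers summed to between 3553 and 3777 in stress hippocampus, against 1280 to 1393 in handled hippocampus, and 2 of the 5 tested passed as higher. There the 7 oligodendrocyte markers measured summed to 17730 to 20000 after stress, against 20940 to 23320 in handled rats, and 2 passed as lower. The meningeal markers summed to 1567 to 1629 in stress hippocampus, against 1882 to 2072 in handled hippocampus, and 1 passed as lower. In cortex the sums of neocortex, striatal neuron, oligodendrocyte and endothelial markers were lower on every stress array than on every handled array. Neocortex markers summed to 2012 to 2091 after stress, against 2169 to 2524 in handled rats. Hippocampus markers were higher there, at 2968 to 3119 against 2748 to 2856. No gene of these lists passed for stress in cortex. Striatal neuron markers summed to 1376 to 1520 in stress hippocampus, against 1524 to 1750 in handled hippocampus, and none passed. The part of these cells in the Hpcal4 result, in amygdala or between regions, was not tested.

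None of the stress differences of the remaining sensors passed. Hpca in amygdala differed by 0.15 ± 0.07 on the log2 scale (adjusted p = 0.302 in limma), with overlapping arrays, and passed without stress amygdala 1 (adjusted p = 0.04). Hpcal1 on 1372179_at was lower on every stress array than on every handled array in amygdala (-0.25 ± 0.09, adjusted p = 0.219) and in cortex (-0.23 ± 0.09, adjusted p = 0.376), but neither difference passed. Its second probe set gave -0.14 ± 0.13 in amygdala and -0.18 ± 0.13 in cortex. In hippocampus, where Hpcal1 is dim, the differences were 0.05 ± 0.09 and 0.08 ± 0.13.

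Ncs1 probe sets gave opposite signs within each of the 3 regions. In amygdala 1374103_at was higher on all stress arrays (0.17 ± 0.08, adjusted p = 0.339 in limma), and 1387685_at, at 74.9, 105 and 134 after stress against 171, 136 and 139 in handled rats, was lower on all of them (-0.48 ± 0.16, adjusted p = 0.135). In cortex 1387685_at read 188, 163 and 169 after stress, against 122, 154 and 133 in handled rats, which is a difference the other way (0.32 ± 0.16, adjusted p = 0.494), while 1374103_at gave -0.13 ± 0.08. In hippocampus the differences were 0.17 ± 0.08 on 1374103_at and 0.07 ± 0.16 on 1387685_at. The dim 1396382_at read 46.1, 67.9 and 69.9 in stress hippocampus, against 82.5, 99.3 and 104 in handled hippocampus. Every stress array was below every handled one (-0.54 ± 0.27, adjusted p = 0.481). In amygdala and cortex that probe set gave 0.22 ± 0.27 and 0.19 ± 0.27, with overlapping arrays. None of these passed, though 1387685_at did in amygdala without stress amygdala 3 (adjusted p = 0.0237).

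Vsnl1 on 1368853_at was higher on every stress than on every handled cortex array, at 2396, 2236 and 2617 after stress against 2111, 2014 and 2054 in handled rats. The log2 difference of 0.23 ± 0.09 did not pass (adjusted p = 0.352 in limma), and on 1368854_at it was 0.05 ± 0.06. Ncald differed by at most 0.07 ± 0.07 on 1372953_at, in amygdala, while 1392581_at gave -0.33 ± 0.14 there (adjusted p = 0.298). Averaged over the 3 regions, again 2 of 13 sensor probe sets passed, both of Hpcal4 (where 4.66% of all passed). Their mean effects were -0.56 ± 0.07 on 1375765_at (adjusted p = 5.93e-05 in limma) and -0.53 ± 0.09 on 1387639_at (adjusted p = 0.000571). These means take in the amygdala effects of -1.18 ± 0.13 and -0.97 ± 0.15, the largest of the 3 regions on both probe sets. On 1379907_at, the brightest, the mean effect was 0.04 ± 0.04 and did not pass (adjusted p = 0.58).

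The family beyond these 6 genes was measured through 7 genes, the photoreceptor sensors recoverin and the guanylate cyclase activators and the Kv4 channel-interacting proteins, of which 4 were bright enough to test. None of the 4 passed for stress in any region, and their median stress effect was 0.05 in amygdala, -0.02 in hippocampus and 0.04 in cortex on the log2 scale. Kcnip2, a subunit of A-type potassium channels, was highest in hippocampus. It averaged 833 ± 36.0 in stress hippocampus, against 254 ± 29.4 in stress cortex (SD, n = 3 each), and 899 ± 20.5 in handled hippocampus, against 248 ± 12.1 in handled cortex. The log2 differences were 1.66 ± 0.08 in stress and 1.79 ± 0.08 in handled arrays (adjusted p = 3.27e-13 and 7.85e-14 in limma). Amygdala was above cortex too, by 0.90 ± 0.08 in stress and 0.91 ± 0.08 in handled arrays.

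Kcnip3 and Kcnip1, relatives that bind the same channels, ran the other way. Stress hippocampus was below stress cortex by -0.73 ± 0.12 for Kcnip3 and by -0.73 ± 0.10 for Kcnip1 on the log2 scale. Handled hippocampus was below handled cortex by -0.76 ± 0.12 and -0.73 ± 0.10 for the same genes, and all 4 differences passed. In handled rats the family thus held genes highest in hippocampus (Hpca, Kcnip2) and genes lowest there (Hpcal1, Hpcal4, Kcnip1).

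Of 6 calmodulins and calmodulin-like sensors, Calm2 and Cabp1 were on the array under 1 symbol, and neither passed for stress. For Cabp1, which regulates calcium channels, the log2 difference between hippocampus and cortex was 0.40 ± 0.15 in stress arrays, which did not pass (adjusted p = 0.0577 in limma), and 0.55 ± 0.15 in handled arrays, which did (adjusted p = 0.00855). For Calm2 it was 0.30 ± 0.07 in stress and 0.20 ± 0.07 in handled arrays, and both passed. The handled Calm2 call was lost under 6 of 27 alternatives, among them the loss of handled hippocampus 1 or of handled cortex 2 or 3, and the handled Cabp1 call was lost without handled hippocampus 1.

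Of 20 partners and effectors, among them channels, clathrin adaptors, receptors and the enzymes that attach the myristoyl group, 16 were tested and 1 passed for stress, in amygdala, where 2.4% of all probe sets passed. Itpr1, the inositol trisphosphate receptor that releases calcium from internal stores, read 935, 1091 and 1036 in stress amygdala, against 897, 876 and 865 in handled amygdala. Every stress array was above every handled array, and the log2 difference was 0.21 ± 0.05 (adjusted p = 0.0448 in limma). The call was lost under 19 of 27 alternatives, with an adjusted p of up to 0.311, and 15 of the 19 were the loss of a single array. No partner passed in hippocampus or cortex (0 of 16 each, where 0.36% and 0.403% of all passed). The median stress effect of the 16 was 0.04 in amygdala, 0.03 in hippocampus and -0.06 in cortex.

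Between amygdala and cortex 4 of 16 partners passed in stress arrays and 2 of 16 in handled arrays, where 19.8% and 14.7% of all probe sets passed. Between hippocampus and cortex 6 of 16 passed in either treatment (25.3% and 25.9% of all), and between amygdala and hippocampus 8 and 7 of 16 (27.8% and 28.4% of all), stress before handled. Itpr1 was lower in amygdala than in cortex, by -0.82 ± 0.05 in stress and -1.12 ± 0.05 in handled arrays on the log2 scale. Nmt1, which attaches myristate to these sensors and to other proteins, was highest in hippocampus, at 572 ± 26.0 after stress and 569.8 ± 2.92 in handled rats. Handled amygdala was below handled hippocampus for Nmt1 by -0.82 ± 0.07. Kcnd2, the Kv4 channel subunit that Kcnip2 binds, was higher in handled hippocampus than in handled cortex by 0.81 ± 0.09. Chrna4, a nicotinic receptor subunit, was near the floor in hippocampus, at 9.77 ± 8.94 after stress and 12.3 ± 15.0 in handled rats, so its fold depends on the offset.

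Finally, the genes whose level followed each sensor most closely over the 18 arrays were named, out of 10255 genes compared. Pearson's r of log2 values was 0.994 between Hpca and Nrip3 and 0.992 between Hpca and Rnf182. It was 0.989 between Hpcal1 and Tpd52l1 and 0.986 between Hpcal1 and Zfp423. For Hpcal4, read on 1379907_at, it was 0.968 with both Arpp21 and Hsbp1. For Vsnl1 it was 0.955 with Bhlhe40 and 0.954 with Synpr. The sensors that varied least between regions had weaker matches, Ncs1 at 0.890 with Ambra1 and 0.880 with Atp13a2, and Ncald at 0.856 with Fsd1l and 0.841 with Sdhd. The arrays of a region share their tissue, and these values describe mainly the differences between regions.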

How the data were processed

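Each array has 1 deposited intensity per probe set, on a linear scale. Which software summarised the probes is not given in the sources used here. Judged by the values, the authors brought every array to one mean: with 2% trimmed from each end it is 150.04 or 150.05. The precision of each value is limited by the 3 arrays per group. The 57 control probe sets were left out.

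The scale of analysis was log2(intensity + 16), which damps differences between dim values. Probe sets with a mean log2 value at or above the 40th percentile were tested (18625). In limma 3.58.1 (R 4.3.3) the 6 group means were estimated together (variance trend, 12 residual degrees of freedom, two-sided, adjusted over all probe sets of a comparison, threshold 0.05). Errors beside log2 differences are limma standard errors. The fit was tested on simulated data. Symbols came from the platform annotation, updated through RefSeq: a single symbol for 20832 probe sets, several for 436, no symbol for 9831. Every sensor probe set is named. From the other lists, those past the threshold for stress, or up to 3 with the largest difference between regions, were eligible to be named, and the 2 genes closest to each sensor. The sensors and lists were chosen with earlier results of these data known. Alternatives were other offsets, filters and scalings, no variance trend, only the arrays compared, a replicate block and leaving out each array. Replicate numbers gave no sign of pairing the arrays: deviations of 27 same-numbered pairs correlated at -0.04 to 0.10, none over 0.1. Such low values cannot show that the arrays are unpaired.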

Additional observations from a re-analysis of the deposited data

Results flagged for a closer look

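The stress effect on Hpcal4 1375765_at differed between amygdala and cortex, with a log2 difference of -0.932 ± 0.181 (SE, adjusted p = 0.0336 in limma). The effect was -1.18 ± 0.13 in amygdala and -0.25 ± 0.13 in cortex, and all 3 stress amygdala arrays were below all 3 handled amygdala arrays. On the brightest Hpcal4 probe set, 1379907_at, the same difference between regions was 0.09 ± 0.09 and did not pass. On 1387639_at it was -0.87 ± 0.21 and did not pass either (adjusted p = 0.131 in limma). The call on 1375765_at was lost under 15 of 27 alternative settings, with adjusted p-values from 0.017 to 0.155. Groups of 3 arrays were too small for a rule that flags single arrays far from the rest. Each array's correlation with its group was measured, and each array was left out in turn. Stress amygdala 1 had the lowest mean Spearman's rho with its group, at 0.956.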

How the results depend on the processing

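Of 169 differences of single sensor probe sets (13 probe sets in 13 comparisons), 59 passed. Of these, 45 passed under every one of the 27 alternatives in which they could be tested, 14 were lost under some, and none changed sign. Among the 110 that did not pass, 16 passed under some. With only the arrays of the groups compared, the calls over all probe sets for stress were 186 in amygdala (447 in the fit over all arrays), 20 in hippocampus (67) and 560 in cortex (75), and 1 sensor probe set passed in cortex in place of 0, Vsnl1 1368853_at. With no variance trend there were 32 in hippocampus and 43 in cortex, and with no filter 48 in cortex. The count of sensor probe sets whose stress effect differed between amygdala and cortex went to 0 with an offset of 1, no filter, no variance trend, only the arrays compared, or the replicate block, against 1. Between amygdala and hippocampus it was 1, not 0, with an offset of 64, a filter at the 60th percentile or quantile normalization. The replicate block removed the call between amygdala and cortex, and the labels do not say whether the numbers pair the arrays. The cause of these changes was not tested.

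Leaving out each array in turn gave 2 to 3 sensor calls for stress in amygdala, 0 to 1 in hippocampus, 0 in cortex and 2 to 3 for the mean of the regions. For stress effects compared between regions it gave 0 to 2 between amygdala and cortex, 0 between hippocampus and cortex and 0 to 1 between amygdala and hippocampus. The call for Hpcal4 1375765_at between amygdala and cortex was lost without stress amygdala 1, handled amygdala 2 or 3, handled hippocampus 2 or any of the cortex arrays. Hpca passed for stress in amygdala without stress amygdala 1, and Ncs1 1387685_at without stress amygdala 3. For stress arrays it gave 7 to 10 calls between amygdala and cortex, 8 to 9 between hippocampus and cortex and 7 to 10 between amygdala and hippocampus. For handled arrays it gave 5 to 8, 8 to 9 and 9 to 12 in the same order. Over all probe sets it gave 197 to 535 calls for stress in amygdala (lowest without handled amygdala 3), 27 to 120 in hippocampus (lowest without stress hippocampus 2) and 34 to 167 in cortex (lowest without stress cortex 3). Centring on the median moved the share of higher calls between stress amygdala and stress hippocampus to 42.8%, against 54.1%.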
